A study of Mus musculus with 4 samples.

Results

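Heat shock proteins are chaperones that bind unfolded or newly made proteins and help them reach or regain their shape. Hsp70 proteins work with DNAJ partners and nucleotide exchange factors, Hsp90 works with a set of cochaperones, and mitochondria hold chaperones of their own. The cytosolic chaperonin, called TRiC or CCT, is a ring of related subunits that folds actin, tubulin and other proteins, and prefoldin delivers such proteins to it. Part of the family is induced by the heat shock factor HSF1 when proteins unfold, whereas other members are made at high levels in every growing cell.

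The group described here holds 37 genes chosen by name, with earlier results of these data known. Counts set beside those of all probe sets are therefore descriptions and not tests. Of the 37 genes, 34 had a probe set with a single gene symbol on the array. The probe set with the highest mean over the libraries stood for each gene. Of these 34 genes, 30 had a mean log2 value of at least 4 and were tested, among 17720 tested probe sets and 8892 tested genes in all. Each of the 30 read at least 5.53 in every library, so none passed this filter through 1 group alone. Hsp90ab1, Ptges3 and Hsf1 had no probe set with a single symbol and were not analysed here.

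RNA from BA/F3, a mouse cell line that needs interleukin 3 to grow, was measured on 3' expression arrays in 4 libraries. By title, source name and genotype, 2 of them come from cells with an inducible ETV6-RUNX1 (TEL-AML1) transgene of human sequence, the fusion made by a translocation of childhood leukemia, and 2 from control cells, which the series text calls empty vector lines. Fusion and control cells alike were exposed to 32.5 pM mifepristone, which induces the transgene, for 16 h. The comparison asks how transcript levels differ when the fusion is expressed. Whether each line is 1 clone is not given in the sources used here, and nothing says that the replicates came from separate cultures, so each p-value reflects only the variation among the libraries at hand.

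The description field exchanges the labels of the replicate 1 libraries. There, ETV6-RUNX1 replicate 1 is entered as a control and control replicate 1 as expressing the fusion, whereas title and description match for both replicate 2 libraries. Values are therefore given under both groupings and libraries are named by title. "Described as fusion" means control replicate 1 with ETV6-RUNX1 replicate 2, and "described as control" means ETV6-RUNX1 replicate 1 with control replicate 2. With 2 libraries against 2, an exact permutation test could not give a two-sided p below 0.333, so tests came from limma fitted over all tested probe sets.

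Values are log2 GCRMA levels, on which 1 unit is a 2-fold change, and the lowest value on the array was 2.23. Between 17572 and 17742 probe sets per library reached 4. Of 13 markers listed for BA/F3 and early B cells, 12 had a probe set and 5 were tested, namely Ptprc, Il3ra, Csf2rb, Csf2rb2 and Cd79b. Ebf1, Pax5, Vpreb1, Il7r and Kit lay within 0.5 of the lowest value in all 4 libraries, so the interleukin 3 receptor chains were seen while several early B cell markers were not. Levels in bulk RNA cannot tell fewer cells of a type from less RNA per cell.

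Grouped by title, the chaperone genes did not separate fusion from control libraries. None of the 30 tested genes passed an adjusted p of 0.05 in limma and 0 had an unadjusted p under 0.05, where 0% and 0.282% of all tested probe sets did. Their median fusion minus control difference was 0.10 on the log2 scale, against -0.01 over all tested probe sets, and differences ran from -0.18 to 0.69. Of the 30, 22 were above 0 and 8 below it, while 52.7% of all tested probe sets were below 0. Without the library titled control replicate 1 the median became -0.33, and without control replicate 2 it became 0.49, so its direction depended on single libraries.

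Grouped by description, most chaperone genes read lower in the libraries described as fusion. Of the 30 tested genes, 28 had a difference below 0, against 51.2% of all tested probe sets, and the median difference was -0.48 against -0.01. In 20 genes both libraries described as fusion lay below both described as control, which held for 25.1% of all tested probe sets. In 1 gene, Pfdn5, both lay above, which held for 25.3%. None of the 30 passed an adjusted p of 0.05 in limma, against 0.0113% of all probe sets, and the lowest adjusted p was 0.12. At an unadjusted p under 0.05 there were 14 lower and 0 higher genes, where 9.14% and 10.6% of all probe sets were lower and higher.

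These genes are abundant, and 27 of the 30 had a mean of at least 10. Among all 4120 probe sets that bright, 31% were lower without overlap and 14% were lower at an unadjusted p under 0.05. Of the 27 genes, 20 were lower without overlap and 14 were lower at that p. A difference of at least 2-fold without overlap was seen in 2 genes, Hspd1 and Dnajc2, and in 3.71% of all probe sets.

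The libraries took nearly the same order for most of these genes. Control replicate 1 read lowest in 25 of the 30 and control replicate 2 read highest in 21, so both extremes were libraries titled control. These counts were not made over all tested probe sets. The library medians over all tested probe sets lay between 8.10 in control replicate 2 and 8.15 in control replicate 1. Of each gene's variance between the 4 libraries, the largest share lay along the description split in 21 genes, between replicate 1 and replicate 2 in 5, and along the title split in 4. Over all tested probe sets the description split held the largest share in 50.4%, and the other splits were not counted there.

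**Figure D1:**
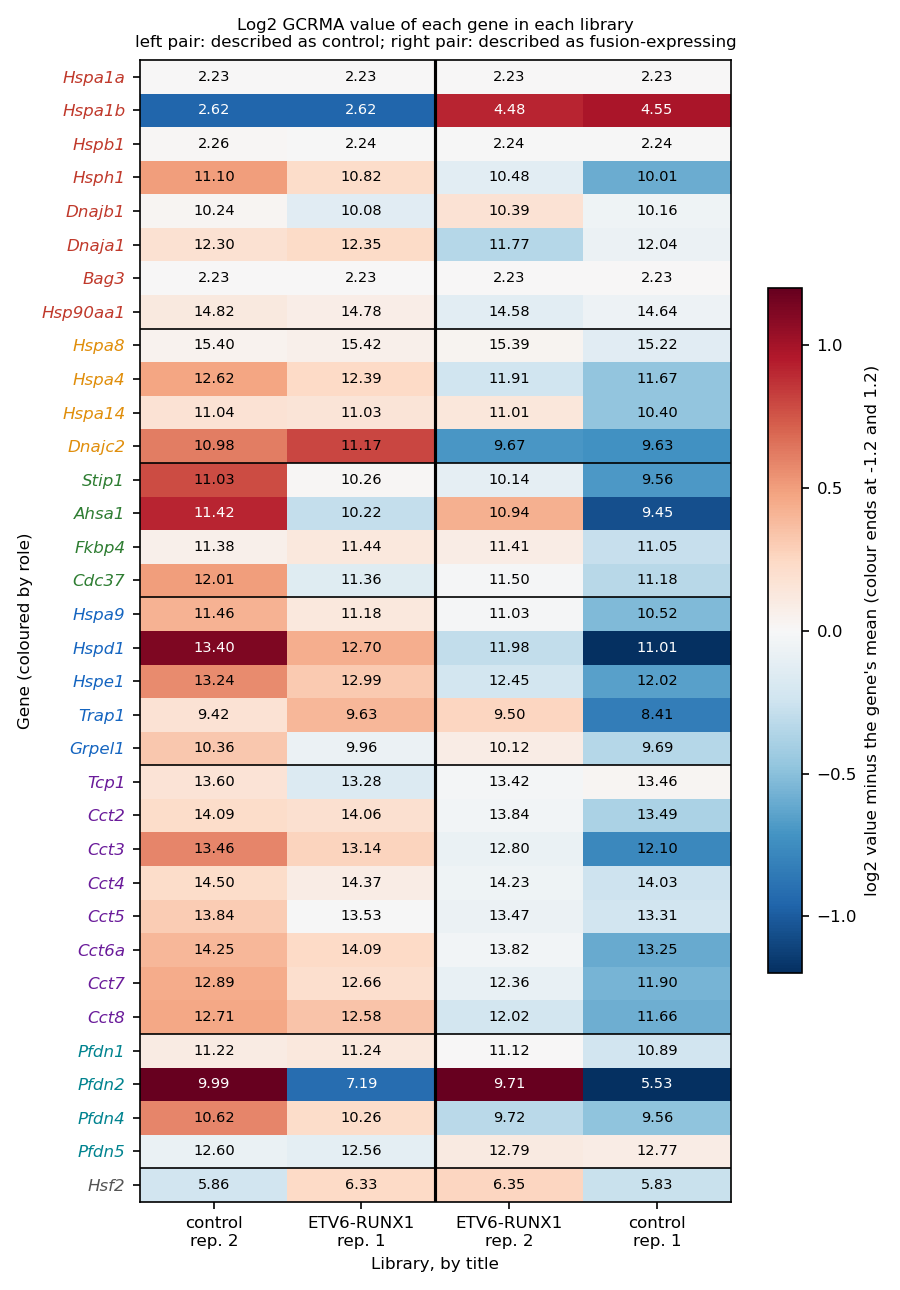
Heat map of the 34 measured genes (rows, gene names coloured by role) in the 4 libraries (columns, by title). Numbers are log2 GCRMA values and colour is the distance from the gene's own mean. The thick line parts the libraries described as control (left) from those described as fusion (right). Control replicate 1 is lowest for 25 of the 30 tested genes, a count not made over all tested probe sets.

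Other measures differed along the same split. Of 16 listed mast cell, basophil and other myeloid markers, 15 had a probe set and 8 were tested. Of these 8, 6 read higher in the libraries described as fusion, while 51.2% of all tested probe sets read lower there. The median difference of the 8 was 2.33. Mpo and Prtn3 went the other way, with differences of -1.49 and -0.84. Their groups overlapped, and both genes read highest in control replicate 2. The linear levels of all 15 summed to 14563 in control replicate 1 and 6651 in ETV6-RUNX1 replicate 2, against 6942 in ETV6-RUNX1 replicate 1 and 6845 in control replicate 2, so these sums overlapped. Most of each sum was Gata2, a transcription factor of several blood lineages, which was set aside after its values were seen. The other 14 summed to 4735 and 1080 in the libraries described as fusion and to 221 and 633 in those described as control, in the same order and without overlap. Fcer1a, the IgE receptor alpha chain, read 9.91 and 7.69 against 2.37 and 2.32. It thus passed the filter only through the libraries described as fusion, so the count and median of the 8 rest in part on the filter. Hdc, histidine decarboxylase, read 8.16 and 7.84 against 3.70 and 5.09. Elane, Mcpt1 and Tpsb2 lay within 0.5 of the lowest value in every library. The 5 tested BA/F3 markers also all read higher in the libraries described as fusion, with a median difference of 0.18. Of 6 fibroblast markers 2 were tested, Acta2 and Vim. Both read higher in the same libraries, Vim with overlapping groups, while Col1a1, Col1a2, Col3a1 and Pdgfrb lay within 0.5 of the lowest value throughout. The 6 summed to 22310 in ETV6-RUNX1 replicate 2 and 18671 in control replicate 1, against 15584 in ETV6-RUNX1 replicate 1 and 18481 in control replicate 2. The 3' minus 5' difference of the dap labelling spike was larger there by 0.93 and that of the phe spike by 0.04, the latter with overlapping groups, and those of Actb and Gapdh, which report on RNA integrity, differed by -0.03 and 0.02. The part of these differences in the chaperone values was not tested.

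The genes most strongly induced by heat were at or near background. Hspa1a, which encodes an inducible Hsp70, read 2.23 in all 4 libraries, as did Bag3, a cochaperone of Hsp70 that is induced with it. Hspb1, the small heat shock protein Hsp27, read 2.24 to 2.26. A value at the floor is a bound, so these 3 genes were not tested and no difference can be read from them.

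Hspa1b, the near-identical neighbour of Hspa1a, read 4.55 in control replicate 1 and 4.48 in ETV6-RUNX1 replicate 2. It read 2.62 in both ETV6-RUNX1 replicate 1 and control replicate 2. The groups by description did not overlap, in the direction opposite to most chaperones, but its mean of 3.57 lay below the filter, so it was not tested. Its second probe set read 3.38 and 3.04 in the libraries described as fusion and 2.23 in both others, and its faintest lay between 2.23 and 2.25 in all 4.

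HSF1 binds DNA at repeated GAA units in alternating orientation. The promoters of the near-silent inducible genes are shown here with those of lower-reading chaperones further down, because both kinds can hold such units. Each is the 250 bases before the gene's start, from RefSeq on build GRCm38.p6, in lower case and 5' to 3' on the gene's strand. Capitals mark matches on either strand to TTCNNGAA or GAANNTTC (paired GAA units), CACGTG (an E-box) and TGTGGT or TGCGGT (RUNX motifs). The Hspa1b window is chr17:34959239-34959488 and the Hspb1 window chr5:135887669-135887918, on the minus and plus strand.
Hspa1b: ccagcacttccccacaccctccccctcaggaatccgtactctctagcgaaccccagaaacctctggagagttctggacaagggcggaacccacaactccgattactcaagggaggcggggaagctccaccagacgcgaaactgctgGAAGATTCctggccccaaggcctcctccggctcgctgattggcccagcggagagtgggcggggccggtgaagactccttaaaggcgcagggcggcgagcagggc
Hspb1: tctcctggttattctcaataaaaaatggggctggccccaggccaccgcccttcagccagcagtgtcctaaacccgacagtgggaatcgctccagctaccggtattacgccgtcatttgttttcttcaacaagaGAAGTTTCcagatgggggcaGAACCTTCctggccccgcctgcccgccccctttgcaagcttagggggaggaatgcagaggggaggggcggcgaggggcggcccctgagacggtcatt
The Hspa1a window matched that of Hspa1b at 247 of 250 bases and held GAANNTTC at the same place, from base -104 relative to the start.

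The other inducible genes were well above background. Hsph1, an Hsp110 nucleotide exchange factor for Hsp70, read 10.48 in ETV6-RUNX1 replicate 2 and 10.01 in control replicate 1. It read 10.82 in ETV6-RUNX1 replicate 1 and 11.10 in control replicate 2, above both. The difference by description was -0.72 (SE 0.23, limma adjusted p = 0.23, unadjusted p = 0.039). Dnaja1, a DNAJ partner of Hsp70, differed by -0.41 (SE 0.13) and Hsp90aa1, the inducible cytosolic Hsp90, by -0.19 (SE 0.06), both without overlap. Dnajb1, the HSF1-induced DNAJ protein also called Hsp40, read 10.08 to 10.39 with overlapping groups and a difference of 0.12 (SE 0.16).

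The Hsp70 machine of growing cells included the gene with the tightest separation. Dnajc2, which encodes a ribosome-bound DNAJ protein called zuotin or MPP11, read 9.67 in ETV6-RUNX1 replicate 2 and 9.63 in control replicate 1. It read 11.17 in ETV6-RUNX1 replicate 1 and 10.98 in control replicate 2, and the groups did not overlap. By description it was 2.68-fold lower, 9.65 ± 0.02 (SD, n = 2) against 11.07 ± 0.13. That difference of -1.42 (SE 0.14, limma adjusted p = 0.12) was the largest per SE among the members. By title the same libraries gave 0.11 (SE 0.76), and in the replicate 2 pair the difference was -1.31.

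Its partner on the ribosome is Hspa14, an Hsp70-like protein, which read 10.40 in control replicate 1 and 11.01 to 11.04 in the other 3 libraries. On this probe set Hspa14 thus differed mainly in 1 library. Another Hspa14 probe set of similar level read 10.75 and 10.51 in the libraries described as fusion and 10.95 and 11.23 in the others. There the groups by description did not overlap, with a difference of -0.46. Hspa4, an Hsp110 exchange factor, read 11.91 and 11.67 in the libraries described as fusion and 12.39 and 12.62 in the others, and differed by -0.71 (SE 0.15, limma adjusted p = 0.16). Hspa8, the constitutive Hsc70, read 15.22 to 15.42, near the top of the array's range of 16.3, and differed by -0.11 (SE 0.07).

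The Hsp90 cochaperones varied more between the replicates. Stip1, also called Hop, which links Hsp70 to Hsp90, read 10.14 in ETV6-RUNX1 replicate 2, 9.56 in control replicate 1, 10.26 in ETV6-RUNX1 replicate 1 and 11.03 in control replicate 2. Its groups by description did not overlap, with a difference of -0.79 (SE 0.37, limma adjusted p = 0.34). Ahsa1, which stimulates the Hsp90 ATPase, read 9.45 and 10.22 in the replicate 1 libraries and 10.94 and 11.42 in the replicate 2 libraries, so it separated the replicates and not the groups. Cdc37, which brings kinases to Hsp90, differed by -0.35 and Fkbp4, an immunophilin of steroid receptor complexes, by -0.18 (SE 0.17) by description, both with overlap. Without control replicate 1 the median of these 4 genes was -0.09, and without ETV6-RUNX1 replicate 1 it was -0.92.

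Among the mitochondrial chaperones, the paired subunits Hspd1 and Hspe1 read lowest in the same libraries. Hspd1 encodes Hsp60, the barrel of the mitochondrial folding chamber, and Hspe1 encodes Hsp10, its lid. Hspd1 read 11.98 in ETV6-RUNX1 replicate 2, 11.01 in control replicate 1, 12.70 in ETV6-RUNX1 replicate 1 and 13.40 in control replicate 2. By description it was 2.94-fold lower, 11.49 ± 0.69 (SD, n = 2) against 13.05 ± 0.49, a difference of -1.56 (SE 0.44, limma adjusted p = 0.21). Hspe1 read 12.45, 12.02, 12.99 and 13.24 in the same order, and its difference was -0.88 (SE 0.20, limma adjusted p = 0.17). For both genes the groups did not overlap by description, and by title they differed by 0.14 (SE 0.92) and 0.09 (SE 0.50).

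Hspd1 and Hspe1 start from a shared stretch of DNA on opposite strands, so their promoters are shown as a pair. The Hspe1 window lies at chr1:55087898-55088147 on the plus strand and the Hspd1 window at chr1:55087933-55088182 on the minus strand, with 215 bases in common. Hspd1 has a second RefSeq start whose window is not printed.
Hspe1: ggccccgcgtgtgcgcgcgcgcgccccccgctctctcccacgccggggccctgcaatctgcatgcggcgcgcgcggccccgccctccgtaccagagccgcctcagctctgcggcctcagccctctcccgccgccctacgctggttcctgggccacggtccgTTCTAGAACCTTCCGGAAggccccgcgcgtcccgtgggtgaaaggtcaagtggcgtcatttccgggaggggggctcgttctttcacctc
Hspd1: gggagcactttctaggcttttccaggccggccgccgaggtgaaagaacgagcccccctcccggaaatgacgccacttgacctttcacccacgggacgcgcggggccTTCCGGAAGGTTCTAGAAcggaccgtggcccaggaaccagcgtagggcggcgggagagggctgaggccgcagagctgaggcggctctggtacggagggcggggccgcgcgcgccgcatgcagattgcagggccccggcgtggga
Both windows hold the same 18 bases, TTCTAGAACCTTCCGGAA on the Hspe1 strand, in which the 2 paired motifs overlap. At least 3 units in a row, alternating and 2 bases apart, were found in 0.466% of 32851 promoter windows and, among the chaperone genes, in Hspd1 and Hspe1.

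Trap1, the mitochondrial Hsp90, read 8.41 in control replicate 1 and 9.42 to 9.63 in the other 3 libraries. Its title groups did not overlap, with the libraries titled fusion higher by 0.65 (SE 0.43, limma adjusted p = 1), and its description groups did. Its other tested probe set read 9.52, 8.94, 8.40 and 9.24 in ETV6-RUNX1 replicate 1, ETV6-RUNX1 replicate 2, control replicate 1 and control replicate 2. There the title groups overlapped and the description groups did not, with a description difference of -0.71, so the probe sets of Trap1 separated different groupings. Hspa9, mortalin, the Hsp70 that pulls proteins into mitochondria, differed by -0.54 and did not overlap by description. In the other tested Hspa9 probe set the description difference was -0.62, with overlap. It read 10.32 and 9.69 in the replicate 1 libraries and 10.84 and 11.44 in the replicate 2 libraries. Grpel1, the nucleotide exchange factor of Hspa9, differed by -0.25 (SE 0.25) with overlap.

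**Figure D2:**
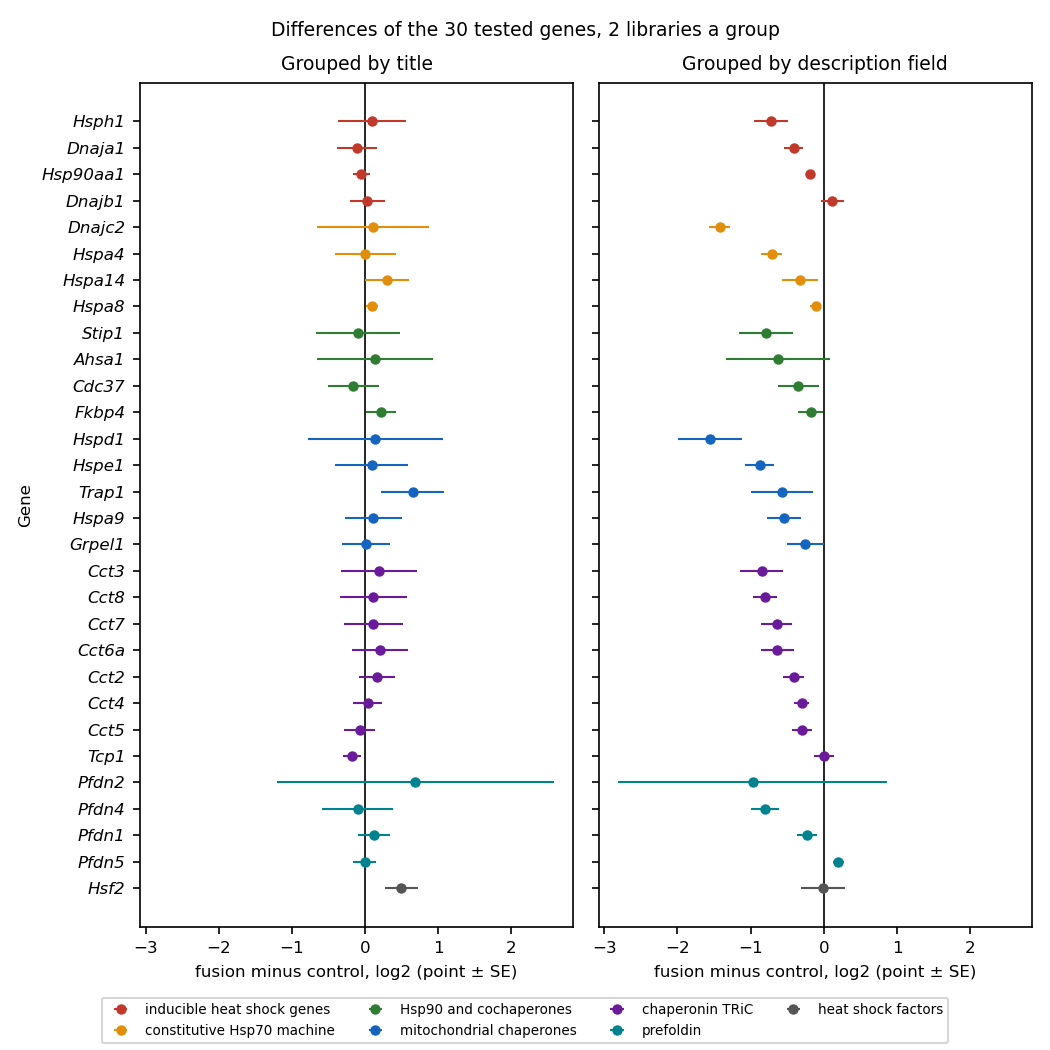
Fusion minus control difference of the 30 tested genes on the log2 scale (points, with limma standard errors as lines), grouped by title on the left and by the description field on the right. By title the points scatter around 0 with wide errors, and by description 28 of 30 lie below 0, with Hspd1 and Dnajc2 farthest at -1.56 and -1.42.

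Of the 8 subunits of the chaperonin TRiC, 7 read lower without overlap by description and 6 of these had an unadjusted p under 0.05, where 31% and 14% of all probe sets with a mean of at least 10 did. Cct8, the theta subunit, read 12.02 in ETV6-RUNX1 replicate 2, 11.66 in control replicate 1, 12.58 in ETV6-RUNX1 replicate 1 and 12.71 in control replicate 2. Its difference was -0.81 (SE 0.16, limma adjusted p = 0.16). Cct3, the gamma subunit, read 12.80, 12.10, 13.14 and 13.46 in that order, and differed by -0.85 (SE 0.29, limma adjusted p = 0.24). The size of the difference was not the same for each subunit.

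Cct7 differed by -0.65, Cct6a by -0.64, Cct2 by -0.41, Cct4 by -0.30 and Cct5 by -0.30. Tcp1, the alpha subunit, was the exception at 0.00 (SE 0.14), with 13.42 and 13.46 in the libraries described as fusion and 13.28 and 13.60 in the others. By title Tcp1 read lower without overlap, at -0.18 (SE 0.12, limma adjusted p = 1). The median of the 8 subunits was -0.52 by description and 0.11 by title.

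Prefoldin subunits differed in direction and in which libraries stood apart. Pfdn4 read 9.72 and 9.56 in the libraries described as fusion and 10.26 and 10.62 in the others, and differed by -0.80 (SE 0.19, limma adjusted p = 0.18). Pfdn1 differed by -0.23 without overlap, and Pfdn5 by 0.20 (SE 0.08, limma adjusted p = 0.30), higher without overlap. Pfdn2 read 7.19 in ETV6-RUNX1 replicate 1 and 5.53 in control replicate 1, but 9.71 in ETV6-RUNX1 replicate 2 and 9.99 in control replicate 2. Its difference by description, -0.97 (SE 1.84), was far inside its own spread, and without control replicate 1 it was 1.12. The median of the 4 prefoldin genes, -0.51, became 0.05 without control replicate 1 and -0.01 without control replicate 2.

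Of the heat shock factors, Hsf2, a relative of HSF1 with roles in development, was measured. It read 6.33 and 6.35 in the libraries titled ETV6-RUNX1 and 5.83 and 5.86 in those titled control, which differed by 0.49 (SE 0.23, limma adjusted p = 1). Hsf2 was thus 1 of 4 tested genes, with Trap1, Fkbp4 and Tcp1, whose title groups did not overlap, Tcp1 lower and the others higher. Over all tested probe sets 6.04% were lower and 4.65% higher without overlap by title.

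Probe sets of the same gene mostly gave the same direction. The 30 genes had 61 tested probe sets, of which 56 read lower by description, 4 higher and 1 equal, and 45 were lower without overlap. Over all tested probe sets 51.2% were lower and 25.1% were lower without overlap. Of 19 genes with several tested probe sets, 18 had a single direction over all of them. The exception was Cct4, whose faintest probe set read 4.07 in every library while its other 4 differed by -0.30 to -1.25. Sizes differed within genes, as for Hspa8, whose dimmest probe set differed by -1.62 and whose brightest by -0.11. For Hsp90aa1 the brightest differed by -0.19 and the others by -0.83 and -0.77, so taking the brightest probe set gave the smallest difference for both genes. With all tested probe sets of a gene averaged, the median over the 30 genes was -0.59 in place of -0.48.

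**Figure D3:**
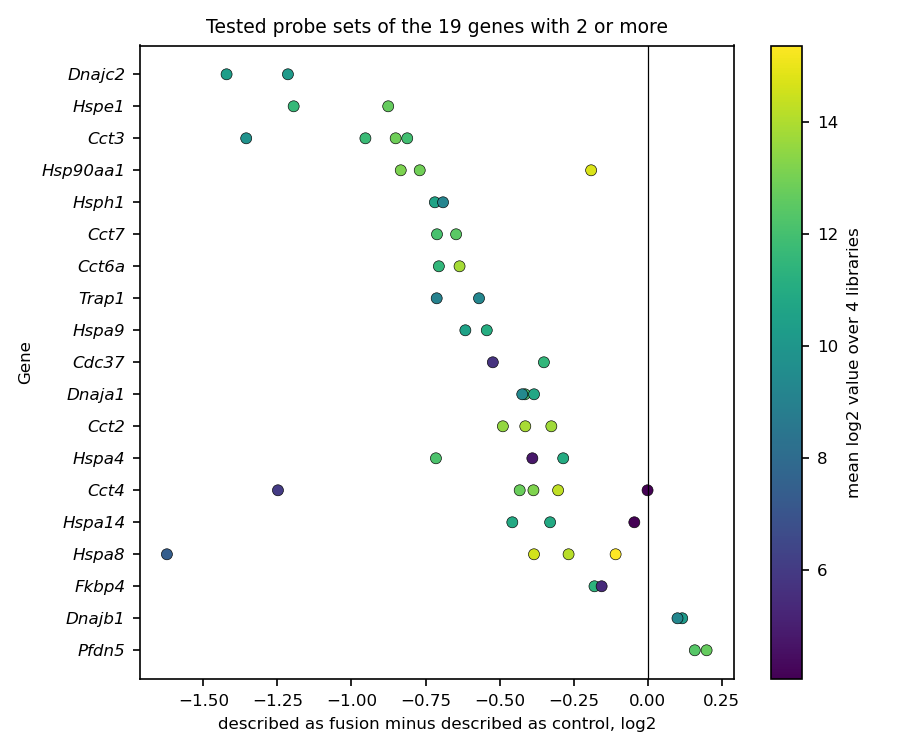
Description difference (log2, horizontal) of each tested probe set of the 19 genes with several, coloured by mean log2 level. Points of a gene lie on 1 side of 0 except for a Cct4 probe set at 0, and the dimmest Hspa8 probe set lies at -1.62.

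The replicate 2 pair is where all labels name the same condition, with 1 library on each side and no replicate check. In ETV6-RUNX1 replicate 2, 25 of 30 genes read lower than in control replicate 2, against 51% of all tested probe sets, with a median of -0.40. Hspd1 at -1.42 and Dnajc2 at -1.31 were the 2 genes past 2-fold downward and 0 passed it upward, where 4.7% and 6.74% of all probe sets were. In the replicate 1 pair, 27 of 30 genes read higher in the library titled ETV6-RUNX1. The median of the 30 was 0.64, against 0 over all tested probe sets. Of the 30, 5 exceeded 2-fold upward and 0 downward, against 6.25% and 6.77% of all probe sets. The title difference of these genes thus ran in opposite directions in the replicates. The exchange of labels in the description field would give both pairs the same direction, and which field is right cannot be told from these values.

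Between the replicates, 2 of the 30 genes differed at least 2-fold, against 6.39% of all tested probe sets. Replicate 1 minus replicate 2, averaged over both title groups, was -3.49 for Pfdn2 and -1.35 for Ahsa1. The median over the 30 genes, replicate 1 minus replicate 2, was -0.25.

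**Figure D4:**
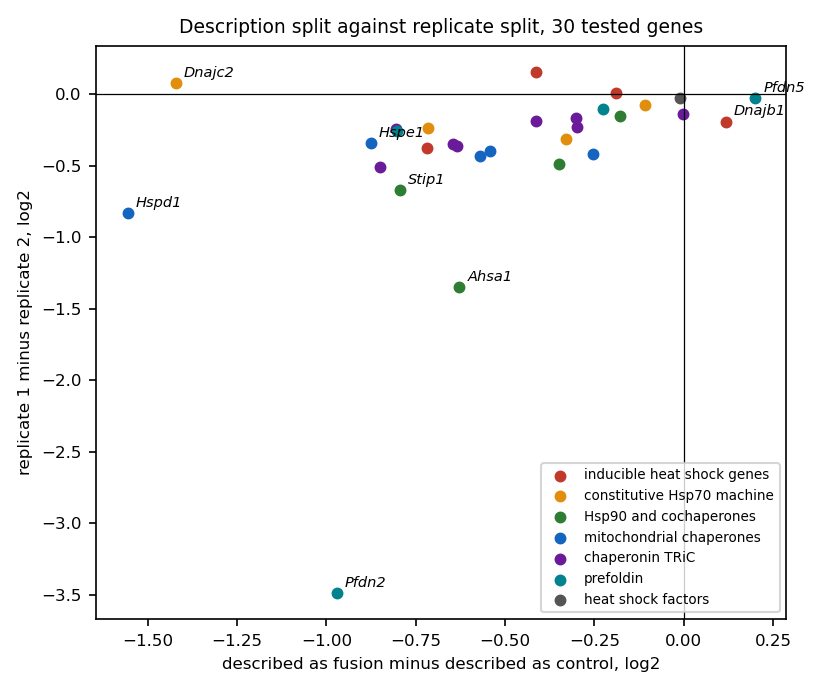
Each tested gene's difference between the libraries described as fusion and as control (horizontal, log2) against its difference between replicate 1 and replicate 2 (vertical, log2). Pfdn2 at -3.49 and Ahsa1 at -1.35 stand apart along the replicate axis, and Hspd1 and Dnajc2 along the description axis.

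Further chaperones and cofactors of the same systems were less uniform in direction. Of 81 such genes, 67 were tested, 0 passed an adjusted p of 0.05 by title or by description in limma, and 9 read lower and 5 higher at an unadjusted p under 0.05 by description. The shares over all tested probe sets were 9.14% and 10.6%, so these counts lay near the background. Their median difference was -0.12, with 43 of 67 below 0, against 51.2% of all tested probe sets. In 30 of the 67 both libraries described as fusion lay below both described as control, against 25.1% of all tested probe sets. These genes thus also leaned lower by description, with a smaller median difference. By list the medians were -0.06 for Hsp70 and DNAJ partners, -0.23 for Hsp90 partners, -0.10 for chaperonin and prefoldin partners and -0.27 for mitochondrial protein quality control.

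Among these, Cacybp, a calcyclin-binding protein with an Hsp90 cochaperone domain, read 11.51 and 11.27 in the libraries described as fusion and 12.63 and 12.73 in the others. Its difference was -1.29 (SE 0.13, limma adjusted p = 0.12). Hspa2, a testis-enriched Hsp70, differed in the other direction at 1.44 (SE 0.21, limma adjusted p = 0.13). Hscb, a mitochondrial DNAJ protein of iron-sulfur cluster assembly, differed by 0.95 (SE 0.17), and the matrix protease subunit Clpp by -0.79 (SE 0.21). Chordc1, an Hsp90 cochaperone, differed by -0.52 (SE 0.12), and Unc45a, also of the Hsp90 partners, by 0.63 (SE 0.19). Pdcl, a phosducin-like chaperonin cofactor, differed by 0.41 (SE 0.12), and Uxt, of the same list, by -0.50 (SE 0.16). Dnajc8, listed with Hspa2, differed by -0.79 (SE 0.11). Of 10 small heat shock protein and factor regulator genes 3 were tested, and Hspb6 differed by 0.70, Hspb11 by -0.44 and Hsbp1 by -0.12.

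Over the promoters, paired GAA units were more frequent in the chaperone genes than in genes at large. Of the 37 genes 29 had a RefSeq promoter, and 11 of these, 37.9%, held TTCNNGAA or GAANNTTC, against 14.5% of 27025 genes with a promoter. They were Hspa1a, Hspa1b, Hspb1, Hspd1, Hspe1, Hsph1, Dnaja1, Fkbp4, Cdc37, Cct2 and Cct5. Within this set Hspd1 and Hspe1 hold the same 18 bases, and the Hspa1a and Hspa1b windows match at 247 of 250 bases. Matches within these pairs are therefore not independent, though each gene was counted. The set thus joins 3 genes at the floor or below the filter with lower-reading genes such as Hspd1, and Dnajc2, Hspa8, Hspa9, Hsp90aa1, Hsp90ab1, Cct4, Pfdn1 and Hsf1 had no entry. CACGTG was found in Hspd1, Hsph1 and Hsf2, 10.3% of the 29 against 6.86% of all genes. TGTGGT was found in 6.90% against 15.9% and TGCGGT in 24.1% against 5.84%, the latter in Cct5, Cct7, Hspd1, Pfdn2, Pfdn4, Tcp1 and Trap1. A gene counted if any of its windows held the motif, and the shares were not adjusted for base composition. For Hspd1, CACGTG and TGCGGT lay only in the window of its second start, which is not printed. A match of letters is not a bound site, and no binding was measured here.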

How the data were processed

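The deposited table holds log2 values for 45101 probe sets in 4 libraries, as deposited by the authors. The submitters' processing notes name GCRMA, version 2.28.0, which corrects background, normalizes and summarises probe sets. The log2 scale was read from the values. Scanner files and scan dates were not used here, and the titles and series text speak of chromatin immunoprecipitation while the protocols describe total RNA, so values were treated as RNA levels. After 64 control probe sets were left out, probe sets with a mean of at least 4 were fitted with limma 3.58.1 in R 4.3.3 (lmFit, eBayes with trend), as two-sided tests whose p-values were adjusted by Benjamini-Hochberg across all tested probe sets, by title and by description field. Precision is limited by the small number of arrays. Genes were named from the platform annotation and promoters from RefSeq. The genes and lists were chosen with earlier results of these data known, and the naming rule took every member, with description differences for the most extreme of each role. On data simulated for the description comparison, 0%, 16% and 56% of changes of 1, 2 and 4 log2 units were called, and for the title comparison 0%, 0% and 24%. Alternatives covered filter, scaling, trend, replicate block, probe set choice and each library left out.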

Additional observations from a re-analysis of the deposited data

How the results depend on the processing

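The chaperone median by description stayed below 0 under every alternative run, between -0.72 and -0.22, and no chaperone gene passed the adjusted threshold under any of them in either grouping. The number of all probe sets past the threshold by description, 2, became 0 without the filter, 10 with median centring, 14 with quantile normalization and 0 with any library left out. The 14 chaperone genes at an unadjusted p under 0.05 became 8 without the filter, 7 without the trend and 1 to 15 with a library left out, lowest without control replicate 2. With the replicate number as a block, the count past the threshold by description was 0 and that of chaperone genes at the unadjusted p was 17; same-numbered libraries deviated at r = 0.59 within the description groups and -0.20 within the title groups, which with 2 numbers does not show pairing. A crossed pairing by title, chosen after seeing the data, gave 0 calls, as did the main fit. Without the filter the median of the inducible genes was -0.0054, since genes at the floor then entered it. With a library left out, medians ran from -0.92 to -0.092 for Hsp90 and its cochaperones, from -1.09 to -0.29 for mitochondrial chaperones and from -0.61 to 0.049 for prefoldin. The chaperone median by title, 0.10, ran from -0.33 to 0.49 with a library left out, so its sign changed. Single genes also changed sign, of which Tcp1 was 0.024 with quantile normalization and -0.16 to 0.16 with a library left out, Hsf2 -0.27 to 0.25, Fkbp4 -0.36 to 0.0035 and Pfdn2, at -0.97 among the larger differences, -3.06 to 1.12. The cause was not tested.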
